A study of Trametes elegans with 15 samples.

Results

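Mycelium of the white-rot fungus Trametes elegans was compared after growth on pine, a softwood, and on maltose, a soluble sugar. All cultures were of strain BRFM 1663, named Artolenzites elegans in the sample titles, and were shaken for 3 days at 30 °C. The pine medium held 15 g/l of ground pine wood together with 2.5 g/l of maltose, and the maltose medium held 20 g/l of maltose and no solid. The wood and the smaller amount of maltose therefore changed together, and their parts in a difference cannot be told apart. The comparison used 6 of the 15 samples in the series, 3 on pine and 3 on maltose. It covered all 949 genes of the deposited table. How these genes were selected is not stated, so shares and ranks given below hold for the listed genes only. The other 9 samples, 3 per medium, came from cultures on 15 g/l of microcrystalline cellulose, wheat straw or aspen. The cellulose and straw media also held 2.5 g/l of maltose, and the amount of maltose beside aspen cannot be read from the label. Of these 9 samples, 8 libraries entered the fit, for the spread between libraries and to see where pine differed from the other solids. The labels list 3 straw samples, but the deposited straw values decoded as means over 2 libraries.

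White-rot fungi break down all the main polymers of wood, including lignin, with secreted hydrolases, oxidases and peroxidases. Softwood differs from hardwood and straw in its lignin, which is built mostly of guaiacyl units, and in its main hemicellulose, a galactoglucomannan. Genes for wood-degrading enzymes are often kept low in fungi while an easily used sugar is plentiful. The table names genes only by a number of the JGI MycoCosm portal and gives no function for any of them, so genes appear here by number and without a role, and the label of the tissue could not be checked against marker genes. Remaining solid substrate was frozen together with the mycelium before RNA extraction, and reads from the wood were not examined.

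The deposited level is a log2 normalised read count with 1 value per medium. The decimals of these values held the whole reads of the single libraries: 3 on pine, 3 on maltose and 14 over all media. These libraries carry no replicate number and are told apart here by the letters a, b and c. Within a medium the letters run from the most to the fewest normalised counts per read. Reads per library could be recovered on both media for 832 genes, which were tested. The other 117 lack reads per library on at least 1 of the 2 media, so their differences rest on the authors' deposited values and have no error. They were 100 genes at 13 or more on either medium, where no search for sets of reads was made, and 17 lower genes whose reads were not unique. The limit lay between levels of 12.99 and 13.02 on pine and between 12.99 and 13.04 on maltose. Recovered reads summed to between 601424 and 737523 in the pine libraries and between 709333 and 794406 in the maltose libraries. These sums are parts of libraries whose full depth is unknown. The root mean square difference in level between 2 libraries of the same medium was 0.35 to 0.46, against 1.59 to 1.72 between a pine and a maltose library. Whether replicates came from separate cultures is not given in the labels. The p-values therefore reflect how far these libraries varied, a spread that may be technical.

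A gene was called higher or lower on pine where the log2 difference, pine minus maltose, was 1 or more in size and had an adjusted p under 0.05 by limma. Of the 832 genes tested, 169 rose on pine (20.3%) and 151 fell (18.1%), and 512 were not called. The median log2 difference was 1.73 among the genes that rose, with a median SE of 0.16, and -1.81 among those that fell, with a median SE of 0.21. Another 238 genes had an adjusted p under 0.05 but differed by less than 1. The smallest called difference was 1.00, and the largest that was not called was 1.54. All 169 rising genes had every pine library above every maltose library, and 150 of the 151 falling genes had every pine library below. Such separation was common, since it held upwards for 38.7% and downwards for 33.2% of all tested genes. The exception was gene 813086, with 5.998, 10.7 and 22.6 normalised counts in the pine libraries and 25.4, 35.3 and 21.1 in the maltose libraries, where pine library c lay above maltose library c. Under 3 other scalings of the libraries 157 to 163 genes were called higher and 147 to 157 lower.

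**Figure D1:**
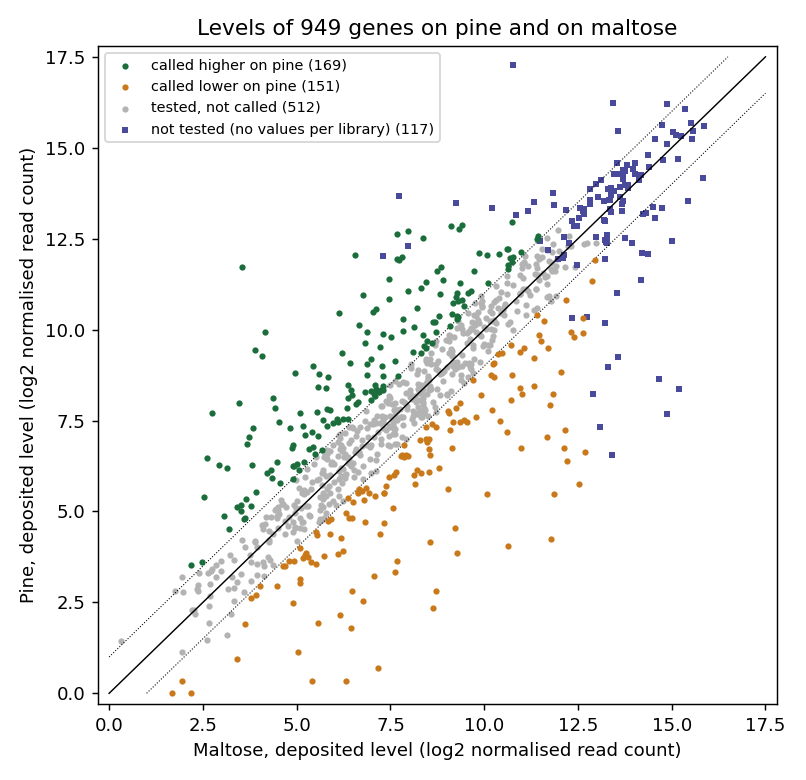
Deposited level on pine (vertical axis) against maltose (horizontal axis) for 949 genes, both as log2 normalised read counts. Green points are the 169 genes called higher on pine, orange points the 151 called lower and grey points the 512 tested and not called. Blue squares are the 117 genes not tested, which lack values per library on pine, on maltose or on both. The solid line marks equal levels and the dotted lines a difference of 1.

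By the deposited values alone, over all 949 genes, 191 were higher on pine by at least 1 (20.1%) and 180 were lower (19.0%). The median difference was 0.08, and the middle 50% of genes lay between -0.68 and 0.76. The directions were close to balance at moderate sizes, with 77 genes higher and 81 lower by at least 2. They parted at large sizes: differences of 4 or more were seen in 20 higher and 31 lower genes, of 5 or more in 7 and 18, and of 6 or more in 2 and 11. This is a count of deposited values, and no test was made of it.

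The balance also varied with level, taken as the mean of the pine and maltose levels. Among 139 genes below 5, 19 were higher on pine by at least 1 (13.7%) and 39 were lower (28.1%). In each of the 4 ranges between 5 and 13, more genes were higher than lower, with 46 higher and 37 lower of 201 genes from 5 to 7, and 47 higher and 35 lower of 193 genes from 9 to 11. Among the 70 genes at 13 or more, 8 were higher and 12 lower. The spread between libraries was largest at low levels. Below 5 the median SD was 0.38 on pine and 0.32 on maltose, and from 9 to 11 it was 0.10 on pine and 0.10 on maltose.

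**Figure D2:**
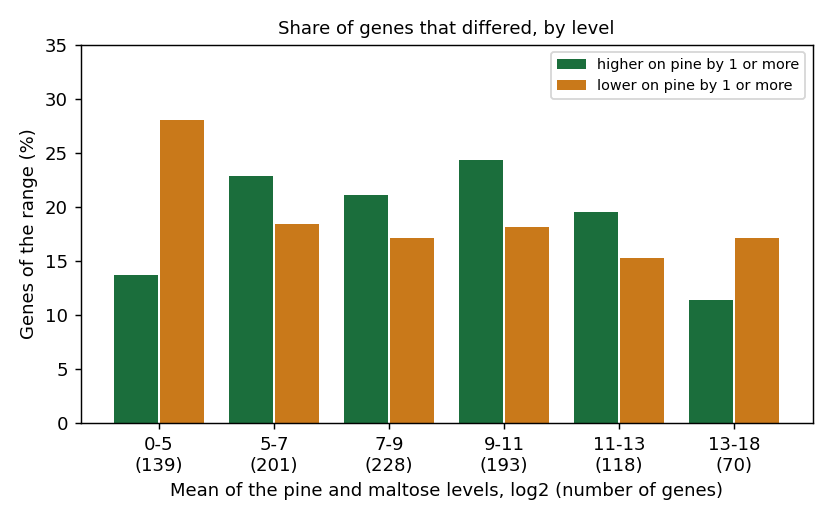
Share of genes (%) whose deposited level was higher (green bars) or lower (orange bars) on pine than on maltose by at least 1 on the log2 scale, in 6 ranges of the mean of both levels. The number of genes in each range stands in brackets. Lower genes outnumber higher ones below a level of 5 (28.1% against 13.7%) and at 13 or more.

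Among tested genes the largest rise was that of 677373. Its pine libraries held 2947, 3434 and 3910 normalised counts, and its maltose libraries 7.52, 13.2 and 12.3. The groups lay far apart, with 37 reads in all on maltose. The level was 11.74 ± 0.20 on pine and 3.55 ± 0.40 on maltose (SD, n = 3 each), a log2 difference of 8.18 (SE 0.48, limma adjusted p = 8.78e-10). The SE is pooled over the media and includes the wide spread of this gene on cellulose, where its SD was 1.46.

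Genes 807754 and 811490 rose from similarly low levels. For 807754 the pine libraries held 900, 1095 and 974 normalised counts, against 13.2, 18.5 and 19.3 in the maltose libraries. For 811490 the pine libraries held 758, 665 and 653, against 15.98, 11.5 and 14.04 on maltose. Both were thus below 20 counts in every maltose library and above 600 in every pine library. The log2 differences were 5.80 (SE 0.15, adjusted p = 1.69e-13) and 5.55 (SE 0.13, adjusted p = 1.15e-13) by limma.

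Gene 810634 had 3335, 5029 and 4555 normalised counts on pine, against 94.0, 90.9 and 95.7 on maltose. Its maltose libraries were nearly equal, with an SD of 0.04, while pine library a was lower than the other pine libraries. The log2 difference was 5.49 (SE 0.16, limma adjusted p = 5.79e-13). Gene 811803 reached the same range, with 5822, 6497 and 6576 on pine and 213, 169 and 228 on maltose, a log2 difference of 4.95 (SE 0.12, adjusted p = 1.55e-12). Gene 908359 was higher still on pine, at 7441, 6366 and 6313 normalised counts, against 307, 255 and 200 on maltose.

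The remaining genes among the 10 largest rises of tested genes had at most 1493 normalised counts in any pine library. Gene 809476 had 631, 557 and 658 normalised counts on pine and 23.5, 18.5 and 8.78 on maltose, where its SD was 0.69. Gene 812358 had 223, 179 and 223 on pine, against 6.58, 5.29 and 5.27 on maltose. Gene 772627 had 294, 270 and 202 on pine, against 13.2, 14.1 and 5.27 on maltose. In 809476 and 772627 it was maltose library c that held the fewest counts. Gene 804243 had 1396, 1322 and 1493 on pine and 70.5, 62.6 and 72.8 on maltose. In each of these genes the lowest pine library exceeded the highest maltose library by over 10 times. Their log2 differences, with 908359, ran from 4.34 for 804243 to 5.20 for 809476, with SEs of 0.14 to 0.29 and limma adjusted p of at most 2.73e-09.

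**Figure D3:**
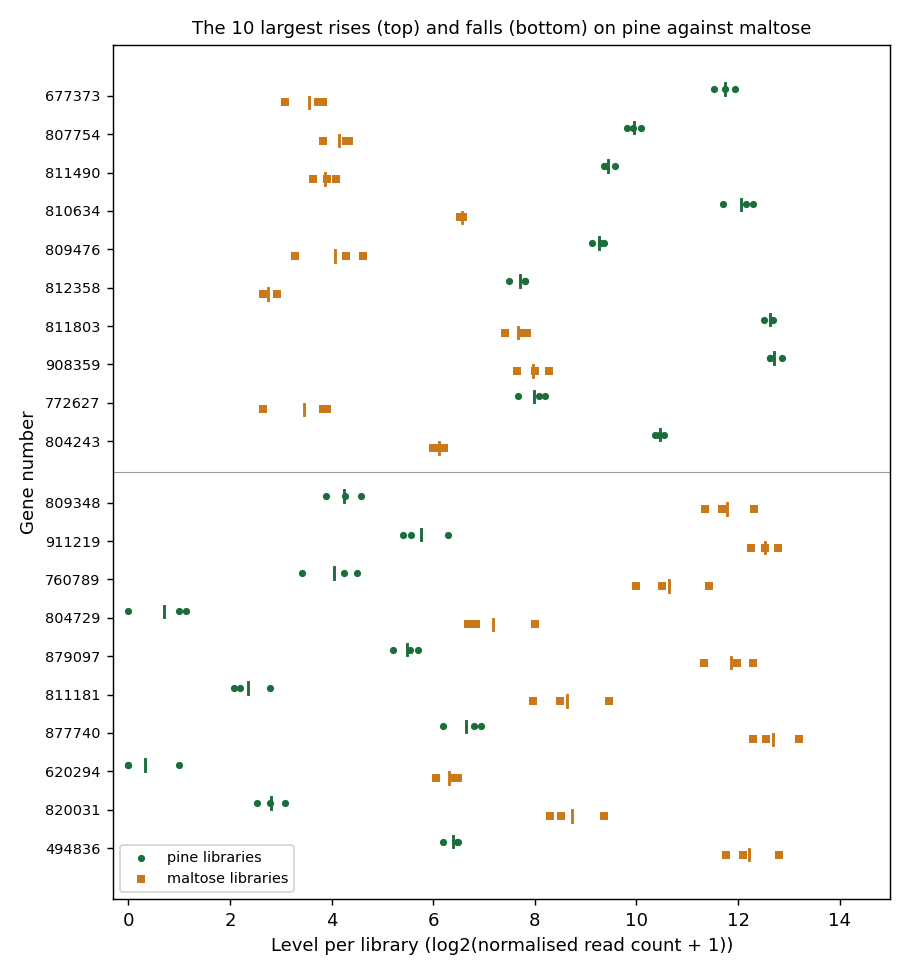
Level per library, as log2(normalised read count + 1), of 20 tested genes on pine and on maltose. Among tested genes, they are the 10 with the largest rise (top) and the 10 with the largest fall (bottom) on pine. Genes that were not tested are left out, and some of them changed as much. Green circles are the 3 pine libraries, orange squares the 3 maltose libraries, and short bars their means. Only called genes whose pine and maltose libraries do not overlap were eligible, so the separation in all 20 follows from the choice. Among all tested genes it held upwards for 38.7% and downwards for 33.2%.

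The largest fall was that of gene 809348, which had 22.8, 18.2 and 13.7 normalised counts on pine, against 5118, 3303 and 2605 on maltose. Its level was 4.24 ± 0.35 on pine and 11.79 ± 0.49 on maltose (SD, n = 3 each), a log2 difference of -7.55 (SE 0.35, limma adjusted p = 6.33e-11). Gene 911219 had 76.8, 41.6 and 46.1 normalised counts on pine and 7105, 5948 and 4913 on maltose. In both genes the lowest maltose library lay far above the highest pine library. The difference of 911219 was -6.78 on the log2 scale (SE 0.19, adjusted p = 4.45e-13).

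In a further 5 genes with large falls, maltose library a held more counts than b and c. Gene 877740 had 110, 72.6 and 122 normalised counts on pine, against 9446, 6001 and 5022 on maltose. Gene 494836 had 88.8, 72.6 and 87.4 on pine, against 7139, 4373 and 3480. Gene 879097 had 36.0, 45.9 and 51.1 on pine, against 5027, 4035 and 2565. In these 3 genes the pine libraries lay within 2 times of each other. Gene 760789 had 17.99, 9.61 and 21.6 on pine, against 2771, 1444 and 1016 on maltose. Gene 811181 had 3.60, 3.20 and 5.89 on pine, from 12 reads in all, against 699, 358 and 250 on maltose. The log2 differences of these 5 genes ran from -6.59 for 760789 to -5.84 for 494836, with SEs of 0.21 to 0.36 and limma adjusted p of at most 2.78e-09. Without maltose library a the difference was -6.19 for 760789, -5.88 for 811181, -5.78 for 877740, -6.16 for 879097 and -5.54 for 494836. Gene 820031 broke this pattern: its highest maltose library was b, with 4.80, 7.47 and 5.89 normalised counts on pine and 314, 661 and 363 on maltose.

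The last 2 of the 10 largest falls among tested genes were almost without reads on pine. Gene 804729 had 2 reads in the 3 pine libraries together and 517 on maltose, a ratio of mean normalised counts, maltose over pine, of 216 with a 95% Poisson interval of 60.2 to 1796. Gene 620294 had 1 read on pine and 264 on maltose, a ratio of 242 with an interval of 39.4 to 8676. The exact intervals cover the counting error of the pine reads only. With a pseudocount of 1, limma gave 804729 a log2 difference of -6.47 (SE 0.38, adjusted p = 8.31e-10) and 620294 one of -5.99 (SE 0.31, adjusted p = 2.15e-10). A pseudocount of 5 reduced these to -4.71 and -3.98. It also gave -5.46 for 811181, -5.28 for 820031 and 4.31 for 812358, each over 1.5 times smaller as a fold.

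In all, 7 genes had 3 reads or fewer over the pine libraries, against 1 gene over the maltose libraries. No read was found on pine for 789979, which had 13 reads on maltose, and for 804624, which had 8. Against a floor of 3 reads over the pine libraries, the mean on maltose was 3.60 times as high for 789979 and 2.19 times for 804624. These ratios leave out the counting error of the few maltose reads, so they are not lower bounds. Transcription on pine at these low levels was not detectable at this depth. Gene 815752 had 1 read on pine and 140 on maltose, a ratio of 129 (95% interval 21.0 to 4625). The others were 939217, with 3 reads on pine and 32 on maltose, and 153712, with 1 and 10. All 7 were called lower on pine, against 18.1% of all tested genes, but choosing genes with so few pine reads nearly fixed that direction. The only gene with so few reads on maltose was 936201, with 1 read there and 5 on pine, and it was not called (limma adjusted p = 0.055).

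Genes at 13 or more on either medium made up the top of the listed transcripts. There were 100 of them, 59 at 13 or more on both media, 19 on pine alone and 22 on maltose alone. By deposited value 17 were higher on pine by at least 1, 23 were lower and 60 lay within 1, and 21 lay within 0.25. Their median difference was 0.23, against 0.08 over all 949 genes. Only the authors' mean is known at these levels, so no test was made, but the libraries of the medium with the lower level were often recovered.

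The highest gene on pine was 873101, at a deposited level of 17.27 on pine and 10.77 on maltose. Its maltose libraries held 1733, 1743 and 1773 normalised counts, with an SD of only 0.02, and the deposited difference of 6.50 is 90.3-fold. Gene 878627 was at 13.67 on pine and 7.73 on maltose, where its libraries held 229, 194 and 211 normalised counts. Gene 767558 was at 13.48 on pine and 9.24 on maltose, and its maltose libraries held 773, 583 and 489. The rise of all 3 was many times the spread of their maltose libraries, but their spread on pine is unknown and the rise was not tested. Smaller rises were those of 806377, at 13.34 on pine and 10.20 on maltose, of 876569, at 16.22 and 13.43, and of 852108, at 13.15 and 10.86.

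Large falls among these genes ended in well measured low levels on pine. Gene 165303 was at 7.67 on pine, with 193, 209 and 206 normalised counts, and at 14.87 on maltose. Gene 803418 was at 6.55 on pine, with 107, 88.6 and 84.4 normalised counts, and at 13.42 on maltose. Gene 809339 was at 8.37 on pine, with 228, 346 and 456, and at 15.19 on maltose. The pine libraries of 165303 agreed within an SD of 0.06, whereas those of 809339 spread by 0.50. Gene 814419 was at 8.64 on pine, with 399, 383 and 410 normalised counts, and at 14.66 on maltose. Gene 815402 was at 7.31 on pine, with 169, 140 and 167, and at 13.08 on maltose. The deposited differences of these 5 genes were -7.20, -6.87, -6.82, -6.02 and -5.77, in the order given, and gene 803513 followed at -4.33.

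Other abundant genes were close to equal. The 4 with the smallest differences were 803097, at 14.12 on pine and 14.13 on maltose, 753614, at 13.33 and 13.35, 804952, at 13.65 and 13.61, and 780103, at 14.24 and 14.18. Gene 826215, the highest on maltose at 15.86, was at 15.61 on pine. Of the other genes highest on maltose, 774648 was at 15.45 on pine and 15.56 on maltose, 802875 at 15.23 and 15.53, and 609810 at 15.67 and 15.51. Gene 103613 was lower on pine, at 14.18 against 15.83 on maltose. After 873101 and 876569, the highest genes on pine were 812417, at 16.20 on pine and 14.88 on maltose, and 855347, at 16.07 and 15.35.

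The top of the list was more concentrated on pine. When levels were turned back into normalised counts and summed over the 949 genes, the first gene held 6.14% on pine and 2.57% on maltose. The first 10 genes held 25.9% on pine and 19.9% on maltose, and the first 50 held 58.5% and 54.7%. Of the 20 highest genes on each medium, 13 were shared, or 65% of each list. These shares come from the deposited means and have no error.

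**Figure D4:**
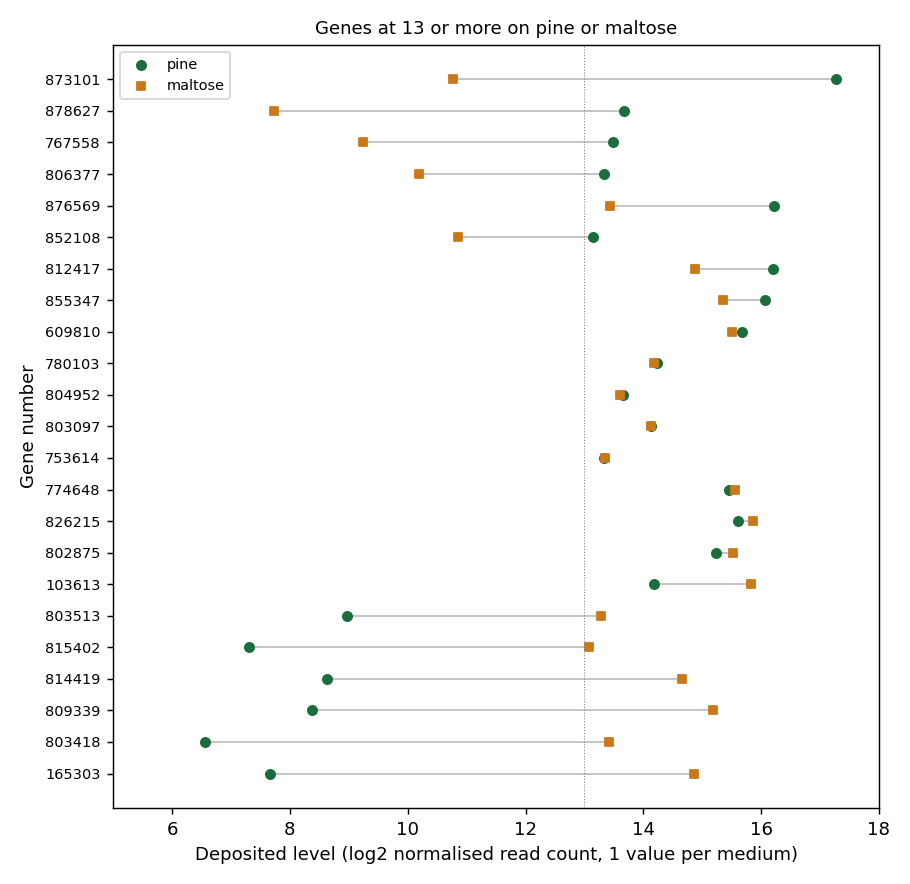
Deposited level (log2 normalised read count, 1 value per medium) on pine (green circles) and on maltose (orange squares) of named genes at 13 or more on either medium, ordered by their difference. The dotted line marks 13. Gene 873101 lies at 17.27 on pine against 10.77 on maltose, while the genes in the middle lie close together on both media.

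Pine was then set directly against the other solids, to see which of its differences from maltose went beyond them. The cellulose and straw media held the same 2.5 g/l of maltose as the pine medium, and the amount beside aspen cannot be read from the label. In the same limma fit, 107 of 817 tested genes were higher on pine than on cellulose (13.1%) and 222 were lower (27.2%). Against straw 75 of 860 were higher (8.72%) and 270 lower (31.4%), and against aspen 61 of 837 were higher (7.29%) and 227 lower (27.1%). These splits depend on scaling: median centring raised every difference of pine by 0.54 against cellulose, 0.89 against straw and 0.59 against aspen, and centring on the median difference raised them by 0.19, 0.32 and 0.30.

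Of the 790 genes tested in all 4 contrasts, 17 were higher on pine than on maltose and on each other solid (2.15%), and 47 were lower (5.95%). The 4 contrasts share the pine libraries. Higher genes made up 26.6% of these 64 genes as deposited, but 60.7% after median centring, with 37 higher and 24 lower, and 62.7% after quantile normalisation, with 32 and 19. After centring on the median difference the counts were 23 and 35. All 17 higher genes kept their calls under the 3 scalings, and 24, 19 and 35 of the 47 lower genes did, in the same order. Under every one of 12 alternatives, which include leaving out single libraries and low genes, 11 of the 17 and 12 of the 47 kept their calls. Low genes removed by the filter on mean level were not tested there and count as not kept.

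The 5 genes of this kind with the largest rise over maltose were 677373, 810634, 769467, 770083 and 762575. Levels of 677373 were 11.74 on pine, 3.77 on cellulose, 8.47 on straw, 9.75 on aspen and 3.55 on maltose. Gene 769467 was at 11.99 on pine, 7.54 on cellulose, 8.44 on straw, 8.83 on aspen and 7.82 on maltose. The first was thus also well above its maltose level on straw and aspen, whereas the second lay within about 1 of its maltose level on every solid but pine. Its pine libraries held 4503, 3516 and 4243 normalised counts, against 213, 250 and 213 in the maltose libraries. The log2 difference of 769467 from maltose was 4.17 (SE 0.12, limma adjusted p = 6.38e-13).

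Levels of 810634 were 12.05 on pine, 8.17 on cellulose, 7.62 on straw, 9.55 on aspen and 6.56 on maltose. Gene 770083 was at 11.38 on pine and between 9.76 and 9.86 on the other solids, against 7.46 on maltose. Gene 762575 was at 8.11 on pine, 5.81 on cellulose, 5.65 on straw, 6.36 on aspen and 4.38 on maltose. These 3 genes were at their highest on pine, at intermediate levels on the other solids and at their lowest on maltose. Pine libraries of 770083 held 2337, 2938 and 2779 normalised counts, against 191, 167 and 170 on maltose, and those of 762575 held 203, 332 and 312, against 15.98, 22.1 and 21.9.

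The 5 genes with the largest fall in this group were 911219, 804729, 877740, 620294 and 809344. Gene 911219 was at 5.75 on pine, 12.96 on cellulose, 10.31 on straw, 7.58 on aspen and 12.53 on maltose. Gene 877740 was at 6.65 on pine, 11.86 on cellulose, 13.73 on straw, 9.03 on aspen and 12.68 on maltose. Gene 809344 was at 3.86 on pine, 10.96 on cellulose, 10.65 on straw, 6.71 on aspen and 9.26 on maltose. In each of these 3, aspen lay next to pine, and cellulose at or near the maltose level or above it. Gene 804729 was at 0.71 on pine, 8.30 on cellulose, 9.82 on straw, 5.98 on aspen and 7.18 on maltose. Gene 620294 was at 0.33 on pine, 8.10 on cellulose, 2.84 on straw, 2.13 on aspen and 6.32 on maltose, so only its cellulose level exceeded that on maltose. Over these 10 genes, chosen for passing these tests, the direct differences of pine from the other solids had limma adjusted p of at most 0.00183.

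**Figure D5:**
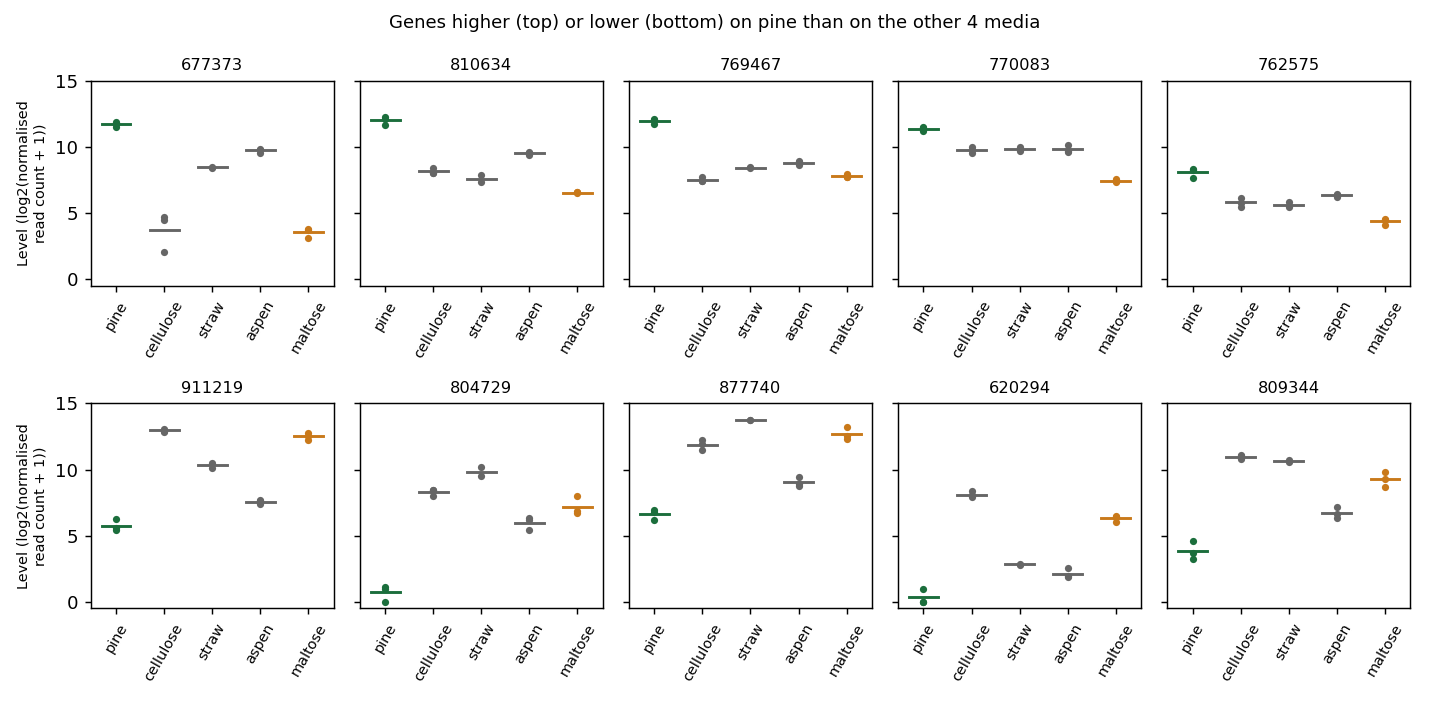
Level, as log2(normalised read count + 1), of 10 genes on pine (green), on cellulose, straw and aspen (grey) and on maltose (orange). Points are recovered libraries, 3 per medium and 2 on straw, and horizontal bars are the deposited values. The upper 5 genes are highest on pine and the lower 5 lowest on pine.

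Some of the other large rises on pine stayed below those on other solids. Gene 812358 was at 7.70 on pine, 11.77 on cellulose, 13.19 on straw, 11.80 on aspen and 2.74 on maltose. Its pine level was lower than that on cellulose by a log2 difference of -4.06 (SE 0.14, limma adjusted p = 2e-12), than that on straw by -5.49 (SE 0.15, adjusted p = 2.3e-13) and than that on aspen by -4.10 (SE 0.14, adjusted p = 1.12e-11). Gene 772627 was at 7.98 on pine, 11.62 on cellulose, 11.61 on straw, 9.62 on aspen and 3.46 on maltose. For 807754 the pine level of 9.95 and the cellulose level of 9.91 differed by 0.04 (SE 0.15, adjusted p = 0.836), within the spread between libraries. Against straw, at 10.90, the difference of pine was -0.95 (SE 0.16, limma adjusted p = 0.00011). Against aspen, at 10.34, it was -0.39 (SE 0.15, adjusted p = 0.027). The gene with the largest fall, 809348, was at 4.24 on pine, 7.65 on cellulose, 2.99 on straw, 2.83 on aspen and 11.79 on maltose. Its pine level was thus not the lowest: it was above straw by 1.25 (SE 0.39, limma adjusted p = 0.0105) and above aspen by 1.41 (SE 0.35, adjusted p = 0.0022).

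The strongest changes were also followed as groups over the other media. The 31 genes lower on pine than on maltose by at least 4 had a median level of 5.49 on pine, 9.89 on cellulose, 7.85 on straw, 7.28 on aspen and 11.68 on maltose. On cellulose 10 of them lay within 1 of their maltose level, on straw 3 and on aspen 1. Direct tests found 22 of the 26 tested genes lower on pine than on cellulose and 2 higher, 24 of 31 lower than on straw and 1 higher, and 18 of 31 lower than on aspen and 1 higher. The 20 genes higher on pine by at least 4 had a median level of 11.96 on pine, 10.57 on cellulose, 11.73 on straw, 11.80 on aspen and 7.49 on maltose. Here 8 of 14 tested genes were higher on pine than on cellulose and 3 were lower, with 4 higher and 5 lower of 15 against straw, and 3 higher and 3 lower of 13 against aspen. Over all tested genes, 13.1% were higher and 27.2% lower on pine than on cellulose, 8.72% and 31.4% against straw, and 7.29% and 27.1% against aspen. Both groups were chosen by their values on pine, which favours extreme values there, so the counts are a description only, and these comparisons with maltose share the maltose libraries.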

How the data were processed

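Poly A RNA of mycelium was sequenced as paired-end Illumina reads, per the labels' protocols. Tools named in the submitters' processing notes are TopHat2, HTSeq and DESeq 1.5, with no role for any of them. No source used here gives the genome build. The data are 1 table the authors deposited, with 949 genes and 1 normalised log2 read count per medium, per the file headers. How the genes were selected is not stated there.

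Each deposited log2 value was decoded as a mean over libraries of log2(whole reads x factor + 1), with a tolerance, in natural log units, of 6e-14 for values under 10 and 1.7e-13 for the rest. These tolerances were set after the residuals were seen. On pine and maltose 1719 of 1898 values gave exactly 1 set of reads. From level 11 to 13 this held for 110 of 121 pine and 104 of 113 maltose values. There 6 pine and 7 maltose decoy values, shifted by 1e-06, also gave a set, as did 7 on cellulose and 8 on aspen. From level 9 to 11, 3 maltose decoys and 1 cellulose decoy gave a set. A few sets from level 9 to 13 may therefore be wrong. From level 6 to 11 libraries were searched within 2 log2 units of the deposited value, and from 11 within 1. In simulated pine libraries every unique set was the true one, 113 of 117 values from level 11 to 13 included. One read was worth 0.878 to 1.20 normalised counts. The reads of every pair of pine libraries and of maltose libraries differed beyond sampling noise (chi-square per degree of freedom 3.86 to 21.1), and all were kept as separate replicates.

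The test was limma 3.58.1 (R 4.3.3) on the recovered log2 values of all 14 libraries, with the medium as the only factor and a trend of variance with level. The Benjamini-Hochberg method adjusted p-values over all genes tested in a comparison. In simulated data for pine against maltose over 832 genes, 50 of 50 genes raised by 1.5 and 48 of 50 lowered by 1.5 were called, as were all raised or lowered by 3 and 0 of 632 with no change. Every simulated gene had the same dispersion and the simulated libraries were independent. These counts therefore check the procedure and are not error rates of the real data. Named genes are the 10 largest tested rises and falls whose libraries do not overlap, the 6 largest rises, 6 largest falls and 4 smallest differences among genes at 13 or more, the 5 highest genes on each medium, and the 5 largest rises and falls that also passed against each other solid. Genes 813086, 815752, 789979, 804624, 939217, 153712 and 936201 were named after their values were seen. The comparison, the rule and the tests were chosen with earlier results of these data known. Folds on the log2(value + 1) scale understate the change of genes with few reads.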

Additional observations from a re-analysis of the deposited data

Results flagged for a closer look

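The response to pine, as the difference from maltose, differed from that to every other solid in 10 named genes, by the direct limma test of the difference in which maltose cancels. These genes were named because they had passed these same tests, so that they differ follows from the choice. The values below describe them only. For each gene the solid with the nearest level is given. The pine level exceeded that on aspen by a log2 difference of 1.99 (SE 0.48) for 677373, 2.50 (SE 0.16) for 810634, 3.16 (SE 0.12) for 769467 and 1.75 (SE 0.22) for 762575, and that on straw by 1.53 (SE 0.17) for 770083. The pine level was below that on aspen, with a difference of -1.83 (SE 0.19) for 911219, -5.28 (SE 0.38) for 804729, -2.38 (SE 0.26) for 877740, -1.80 (SE 0.31) for 620294 and -2.85 (SE 0.32) for 809344. Adjusted p ran from 4.85e-11 for 769467 to 0.00183 for 677373. Calls against all 4 media were lost for 877740 under quantile normalisation and for 620294 under quantile normalisation and with a pseudocount of 5. Both 804729 and 620294 lie under the filter at a mean level of 5 and were not tested with it.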

How the results depend on the processing

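No paired analysis was possible because the recovered libraries carry no replicate number. Leaving out each pine or maltose library in turn gave 165 to 176 genes called higher and 147 to 154 lower, and 13 to 20 higher and 44 to 47 lower than on all 4 other media. A size limit of 2 gave 67 called higher and 65 lower, limma's test against a difference of 1 gave 109 and 99, and no limit on size gave 300 and 258. By deposited values alone, a limit of 2 gave 77 higher and 81 lower. Genes that differed from all 4 other media numbered 37 higher and 24 lower after median centring and 32 and 19 after quantile normalisation. Of the 17 higher and 47 lower genes, 11 and 12 kept their calls under every alternative, where genes removed by the level filter count as not kept. Other settings moved the counts by less than 1.5 times, and all 24 tested named genes kept their call and direction against maltose under every alternative run on them. As folds, 5 of them moved by over 1.5 times with a pseudocount of 5, to log2 differences of -3.98 for 620294, -4.71 for 804729, -5.46 for 811181, -5.28 for 820031 and 4.31 for 812358, and 620294 also did after quantile normalisation, to -5.23. Depth limits genes with few reads: 59 tested genes had under 30 reads over the pine libraries and 40 over the maltose libraries.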

Other observations

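Maltose library a was the highest of its medium in 93 of the 151 genes that fell on pine (61.6%), in 66 of the 169 that rose (39.1%) and in 352 of all 832 tested genes (42.3%). Without it 147 genes were called lower, 142 of the 151 among them, and 176 were called higher. Its part in the size of the falls was otherwise not tested.

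Among the 17 genes below 13 on both media whose reads were not unique, 2 were higher on pine by at least 1 and 3 were lower. These 5 were named after their values were seen. Gene 777366 was at 12.03 on pine and 7.31 on maltose, and gene 935156 at 12.30 on pine and 7.97 on maltose. Gene 803204 was at 8.24 on pine and 12.89 on maltose, 871842 at 10.35 and 12.74, and 33618 at 10.33 and 12.33. They have no values per library on at least 1 of the media, and no test was made.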
